A study of Mus musculus with 6 samples.

Results

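Endothelial and pericyte genes were followed in the arcuate hypothalamus of POMCDicerKO and control mice. The members were 39 listed markers of the vessel wall: endothelial cells, the pericytes that wrap capillaries, and the smooth muscle of larger vessels. Taking every probe set annotated to exactly 1 of these genes gave 66 probe sets for 37 genes, out of 45037 probe sets and 18193 genes measured. Ly6c1 and Ly6a had no probe set annotated to them alone and have no value here. The RNA came from Affymetrix mouse arrays, 3 from POMCDicerKO mice and 3 from controls (genotype given as Ctrl), all aged 2 weeks and on a mixed C57Bl/6J, FVB/N and 129 background. In POMCDicerKO mice the microRNA-processing enzyme Dicer was deleted from cells that express POMC, the precursor of melanocortin peptides. The Cre driver, the genotype of the controls and whether a sample pooled animals are not stated in the labels, and nothing beyond the word independent says how the 3 samples of a group were obtained, so tests measure the spread between these samples.

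Brain capillaries are lined by endothelial cells whose tight junctions and transporters form the blood-brain barrier, and pericytes share their basement membrane. Endothelial cells read vascular endothelial growth factor through Flt1 and Kdr and angiopoietins through Tek, and they recruit pericytes through platelet-derived growth factor acting on Pdgfrb. Next to the arcuate nucleus, vessels of the median eminence lack a full barrier and are fenestrated. Whether either cell type expressed Pomc was not tested here.

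Endothelial and mural transcripts showed small differences between the groups, of both signs, and no gene passed the test. Of 37 measured genes, 24 had a positive log2 fold change (POMCDicerKO minus control) and 13 a negative one, so 64.9% were positive against 44.9% of all genes. The median log2 fold change was 0.028 over the members and -0.010 over all genes, and the member median was -0.007 without POMCDicerKO array 1 and 0.10 without array 2. The member with the greatest difference was Adgrl4, an adhesion receptor of endothelial cells, at 0.39 with a standard error of 0.097. By limma with Benjamini-Hochberg adjustment, 0 members and 0 of 45037 probe sets (0%) passed at 0.05, where 1098 probe sets had an unadjusted p under 0.05, with a smallest adjusted p of 1 among the members. The count of positive members was 18 without POMCDicerKO array 1 and 29 without controls 1 and 2.

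The arrays were alike as a whole, with Pearson correlations over probe sets of 0.995 to 0.997 within each group and 0.994 to 0.997 between groups. Pomc, at its main probe set, read 9.35, 9.71 and 9.43 on the POMCDicerKO arrays, against 9.94, 10.87 and 9.76 on the control arrays. Dicer1 read 9.18, 9.19 and 9.33 in POMCDicerKO, against 9.22, 9.18 and 9.24 in controls, a tissue-wide value that cannot check a deletion in few cells. Meningeal and fibroblast markers divided the arrays unevenly: the mean level of 13 genes was 6.19 to 6.79 in POMCDicerKO, against 6.63 to 8.01 in controls, where array 3 was the low one. All 13 had a negative log2 fold change and 3 (23.1%) had every POMCDicerKO array below every control, against 3.86% of all genes. Mature oligodendrocyte markers lay the other way: 9 of 9 were positive, against 44.9% of all genes, with a median log2 fold change of 0.47. Of these markers, 6 had an unadjusted limma p under 0.05, against 2.41% of all genes, and 0 passed the adjusted threshold. Their array medians relative to the control mean were 0.81, 0.11 and 0.51 in POMCDicerKO, against 0.13, -0.13 and -0.001 in controls. Bulk tissue cannot tell fewer cells of a type from less RNA per cell.

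Of the defining markers, Cldn5 and Rgs5 read high and Pecam1 low. Cldn5, the main claudin of brain endothelial tight junctions, averaged 9.19 ± 0.084 in POMCDicerKO and 9.05 ± 0.091 in controls (SD, n = 3 each). Rgs5, a regulator of G-protein signalling typical of pericytes, averaged 10.73 ± 0.13 in POMCDicerKO and 10.51 ± 0.21 in controls (SD, n = 3 each). Pecam1, the adhesion protein that usually defines endothelium, averaged 4.74 ± 0.088 in POMCDicerKO and 4.70 ± 0.13 in controls (SD, n = 3 each). Its mean stood at percentile 27.6 of all probe sets, and no detection call was made. In all, 5 of 37 members had a mean under 6.

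**Figure D1:**
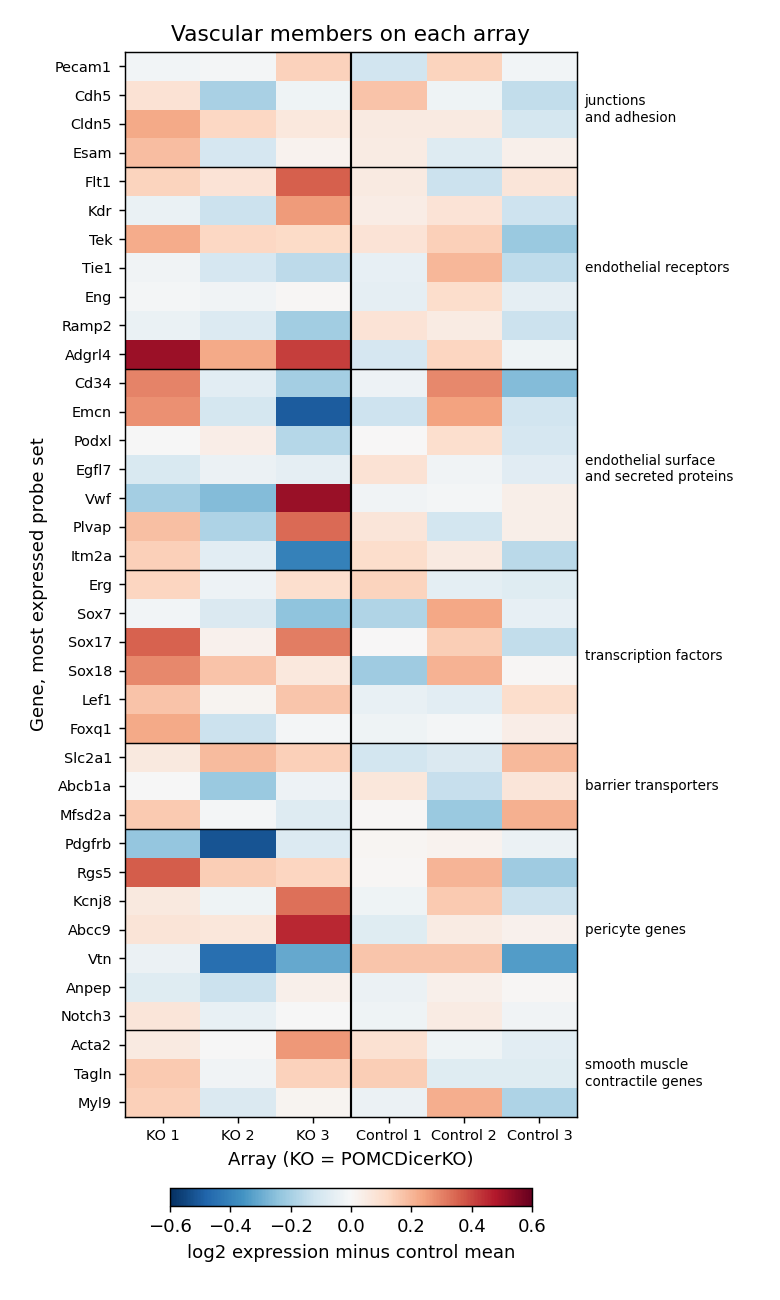
Heat map of the 37 measured vascular genes (rows, grouped by role) on the 3 POMCDicerKO arrays (left) and 3 control arrays (right); the colour is log2 expression minus the control mean. Adgrl4 is the row with the strongest colour shared by the POMCDicerKO arrays, Pdgfrb is blue on those arrays, and POMCDicerKO array 2 holds no row's highest value.

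At the main probe sets, 4 members had every POMCDicerKO array above every control array with a log2 fold change of at least 0.1. They were the endothelial genes Adgrl4, Flt1 and Cldn5 and the pericyte channel subunit Abcc9. Pdgfrb had every POMCDicerKO array below every control. That makes 5 of 37 genes without overlap (13.5%), against 6.44% of all genes, and 4 above, against 2.58% of all genes, and 1 below, against 3.86%. At an unadjusted p under 0.05 there were 2 members (5.41%), Adgrl4 and Pdgfrb, against 2.41% of all genes. Those 2 became 1 without POMCDicerKO array 1 or without control 1, and 4 without control 2. The share of all genes was not computed with these arrays left out, but the count over all probe sets was. That count, 1098 on all arrays, was 994 without POMCDicerKO array 1, 2075 without control 1 and 874 without control 2. Adgrl4, Flt1, Cldn5 and Abcc9 were the only members with all POMCDicerKO arrays above the controls at their most expressed probe set. Endothelial promoters are known targets of ETS transcription factors such as the member Erg. For these reasons the upstream sequences of the 4 genes are shown. Each is the 250 bases before the annotated start (RefSeq, GRCm38.p6), 5′ to 3′ on the gene's strand, with capitals marking the ETS-type hexamer AGGAAG. They span chr3:151437632-151437881 (plus strand) for Adgrl4, chr5:147726012-147726261 (minus) for Flt1, chr16:18776597-18776846 (plus) for Cldn5 and chr6:142702275-142702524 (minus) for Abcc9.
Adgrl4: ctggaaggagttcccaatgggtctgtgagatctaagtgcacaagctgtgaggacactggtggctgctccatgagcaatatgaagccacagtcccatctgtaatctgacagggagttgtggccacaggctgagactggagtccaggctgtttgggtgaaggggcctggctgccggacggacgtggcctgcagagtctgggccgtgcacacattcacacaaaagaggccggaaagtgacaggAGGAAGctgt
Flt1: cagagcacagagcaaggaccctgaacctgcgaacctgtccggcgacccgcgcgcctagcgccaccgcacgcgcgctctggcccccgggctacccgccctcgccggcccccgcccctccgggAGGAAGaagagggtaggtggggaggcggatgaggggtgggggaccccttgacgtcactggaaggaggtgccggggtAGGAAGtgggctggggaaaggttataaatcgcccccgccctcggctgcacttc
Cldn5: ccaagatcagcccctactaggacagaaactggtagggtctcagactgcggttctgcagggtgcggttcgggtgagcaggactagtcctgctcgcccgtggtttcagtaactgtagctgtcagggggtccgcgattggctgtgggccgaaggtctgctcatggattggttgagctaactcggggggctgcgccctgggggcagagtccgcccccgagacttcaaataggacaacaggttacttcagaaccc
Abcc9: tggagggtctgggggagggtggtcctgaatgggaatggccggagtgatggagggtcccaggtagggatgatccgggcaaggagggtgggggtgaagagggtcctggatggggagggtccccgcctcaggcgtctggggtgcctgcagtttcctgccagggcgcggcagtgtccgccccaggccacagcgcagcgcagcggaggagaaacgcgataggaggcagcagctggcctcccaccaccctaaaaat
The hexamer, searched on both strands, occurred 1 time in the Adgrl4 window, whose match began 10 bases before the start, and 2 times in the Flt1 window. The Cldn5 and Abcc9 windows held 0 matches. Windows were listed for 25 of the 39 member genes, and 13 of their 33 windows (39.4%) held the hexamer, against 29.5% of all 32851 windows. A match is a run of letters and not a known binding site.

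Adgrl4 had the smallest p of the members. Its main probe set, 1418058_at, read 8.05, 7.76 and 7.95 in POMCDicerKO, against 7.43, 7.67 and 7.51 in controls. All 3 POMCDicerKO arrays lay above the controls, array 2 by the smallest margin. The log2 fold change of 0.39 (1.31-fold) had a 95% interval from 0.16 to 0.61. A further probe set, 1418059_at, read 6.69, 6.52 and 6.35 in POMCDicerKO, against 6.14, 6.19 and 6.23 in controls, a log2 fold change of 0.34 with no overlap. The 2 probe sets share the same 6 samples, so they are not separate evidence. Both gave an exact two-sided permutation p of 0.1, the smallest that 3 against 3 arrays allow, and a limma adjusted p of 1. Unlike every other member without overlap, its value moved by less than 1.5 times with any single array left out, from 0.32 to 0.47.

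The listed receptors of the endothelium were of both signs. Flt1, which binds vascular endothelial growth factor and limits its action, read 8.30, 8.25 and 8.53 in POMCDicerKO, against 8.22, 8.04 and 8.24 in controls. The groups were separated by a narrow gap, and POMCDicerKO array 3 was the high one. Its log2 fold change of 0.19 (95% interval -0.031 to 0.41) was 0.11 without that array. Of 3 Flt1 probe sets with a mean of at least 6, all had a positive sign, from 0.13 to 0.19. A further Flt1 probe set, 1454037_a_at, whose mean was 5.06, was at -0.059. Kdr, the main signalling receptor for the same factor, read 7.39, 7.31 and 7.69 in POMCDicerKO, against 7.48, 7.51 and 7.31 in controls. Its groups overlapped fully, with a log2 fold change of 0.029 and an interval from -0.23 to 0.29. Tek, the angiopoietin receptor, was at 0.15 (0.042 without control 3 and 0.23 without control 2). Its relative Tie1, whose mean was 4.66, was at -0.093. Eng, a co-receptor for transforming growth factor beta ligands, was at -0.008 at its main probe set and 0.085 at the other. Ramp2, which pairs with the adrenomedullin receptor, was at -0.11. Of the 7 receptors, 4 were positive and 3 negative.

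Junction genes gave 1 gene without overlap. Cldn5 read 9.28, 9.18 and 9.12 in POMCDicerKO, against 9.11, 9.11 and 8.95 in controls. POMCDicerKO array 3 lay just above controls 1 and 2, and control 3 was the low array. The log2 fold change was 0.14 (95% interval -0.041 to 0.32), and 0.086 without control 3. Cdh5, the adherens junction cadherin of endothelium, read 6.40, 6.12 and 6.29 in POMCDicerKO, against 6.48, 6.29 and 6.16 in controls. Its log2 fold change was -0.043, with an interval from -0.29 to 0.20 and overlapping groups. Its other probe set, 1422047_at, whose mean was 4.36, had every POMCDicerKO array below every control at -0.15. Pecam1 read 4.68, 4.69 and 4.84 in POMCDicerKO, against 4.58, 4.83 and 4.68 in controls, for a log2 fold change of 0.037. Esam, an endothelial adhesion molecule, was at 0.035.

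**Figure D2:**
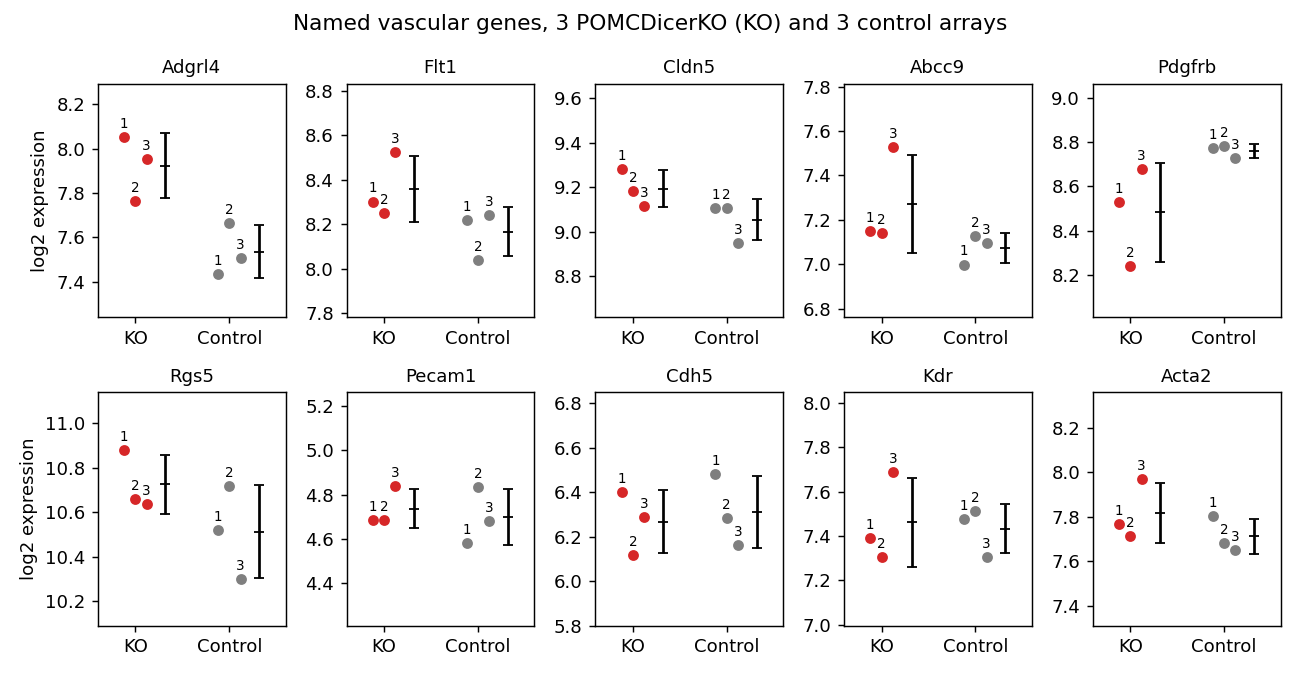
Log2 expression (vertical axes, all panels of equal height in log2 units) of 10 named genes on 3 POMCDicerKO arrays (red, left) and 3 control arrays (grey, right), numbered by array, with bars for the mean ± SD. Adgrl4 shows the widest gap between groups and Pdgfrb the controls tightly together above the POMCDicerKO arrays. The groups of Rgs5, Pecam1, Cdh5, Kdr and Acta2 overlap.

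Endothelial surface and secreted proteins were centred near no difference, with 3 of 7 measured genes positive and a median of -0.046. The group held the most variable members. Vwf, the clotting factor stored by endothelium of larger vessels, read 6.02, 5.96 and 6.74 in POMCDicerKO, against 6.20, 6.21 and 6.26 in controls. POMCDicerKO array 3 alone stood high, so the log2 fold change was 0.017 over all arrays and -0.23 without it. Emcn, a sialomucin of venous and capillary endothelium, read 6.85, 6.47 and 6.07 in POMCDicerKO, against 6.45, 6.82 and 6.46 in controls, with the same array lowest. Plvap, which forms the diaphragms of fenestrated vessels, was at 0.11 and -0.002 without that array. Cd34, Podxl and Itm2a were at 0.011, -0.046 and -0.11. The first of these is a sialomucin of small vessels and the second a related surface glycoprotein. At the other Podxl probe set, 1417396_at, whose mean was 4.76, the log2 fold change was 0.10.

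Egfl7, a secreted endothelial protein, carries within its gene a microRNA hairpin, a substrate of Dicer. The mature strand of miR-126a lies at chr2:26591402-26591423 (plus strand, RefSeq GRCm38.p6), inside Egfl7 at chr2:26581083-26592682, and is shown with its seed, bases 2 to 8, in capitals.
mmu-miR-126a-3p: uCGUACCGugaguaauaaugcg
Mature microRNAs were not analysed here. The host transcript at its main probe set read 8.27, 8.33 and 8.31 in POMCDicerKO, against 8.45, 8.34 and 8.29 in controls. These groups overlapped, with a log2 fold change of -0.061 and an interval from -0.22 to 0.097. Its 4 probe sets ran from -0.061 to 0.069, 1 of them positive.

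Of 6 endothelial transcription factors, 5 were positive, with a median of 0.092. Sox17, an arterial factor that acts with Notch, read 7.34, 7.01 and 7.29 in POMCDicerKO, against 6.98, 7.13 and 6.83 in controls. POMCDicerKO array 2 lay below control 2, and the log2 fold change was 0.23 (95% interval -0.032 to 0.49). At its other probe set, 1421657_a_at, the groups did not overlap and the value was again 0.23. Sox18 and Sox7, of the same SoxF subfamily, were at 0.17 and -0.12. The mean of Sox7 was 4.95, and its other probe set, 1432495_at, whose mean was 4.32, was at 0.13. Erg, the ETS factor that keeps endothelial identity, was at 0.065. Lef1, which carries Wnt signals that induce the barrier, was at 0.12, and Foxq1, a barrier-enriched forkhead factor, at 0.028. None of these 6 passed limma's adjusted threshold.

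Barrier transporters showed no common direction. Slc2a1, the glucose transporter of barrier endothelium, read 11.07, 11.20 and 11.15 in POMCDicerKO, against 10.90, 10.92 and 11.20 in controls. Control 3 was the highest array, so the groups overlapped, and the log2 fold change was 0.13 (95% interval -0.091 to 0.35). Its 3 probe sets were all positive, from 0.031 to 0.13. Abcb1a, the efflux pump P-glycoprotein, was at -0.086 at 1 probe set and 0.019 at the other. Mfsd2a, the lysolipid transporter that keeps transcytosis low, was at 0.023.

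Pericyte genes included the most negative members and some of the most positive ones. Pdgfrb, the receptor through which endothelium recruits pericytes, read 8.53, 8.24 and 8.68 in POMCDicerKO, against 8.77, 8.78 and 8.73 in controls. The controls lay within a narrow band, and POMCDicerKO array 2 was far below them. The log2 fold change was -0.28 (1.21-fold, 95% interval -0.53 to -0.023), and -0.16 without that array. The other probe set, 1417148_at, overlapped at -0.10. Vtn, vitronectin, which brain pericytes secrete, read 8.76, 8.35 and 8.49 in POMCDicerKO, against 8.97, 8.97 and 8.47 in controls. Control 3 was thus among the POMCDicerKO arrays. Its log2 fold change of -0.26 became 0.069 without controls 1 and 2, and that of Pdgfrb stayed at -0.24. Fibroblasts of the meninges also express Pdgfrb. Beside both genes stand the meningeal markers: relative to the control mean, their median was -0.47, -0.68 and -1.28 on the POMCDicerKO arrays, against 0.34, 0.45 and -0.83 on the control arrays. Their part in these values was not tested.

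Rgs5 and the potassium channel genes of pericytes lay on the positive side. Rgs5 read 10.88, 10.66 and 10.64 in POMCDicerKO, against 10.52, 10.72 and 10.30 in controls. Control 2 lay above 2 of the POMCDicerKO arrays. The log2 fold change was 0.21 (95% interval -0.062 to 0.49), 0.11 without control 3 and 0.42 without controls 1 and 2. Of 4 Rgs5 probe sets, all were positive, and 1420941_at, whose mean was 5.73, did not overlap at 0.49. Abcc9, the sulphonylurea receptor subunit, read 7.15, 7.14 and 7.53 in POMCDicerKO, against 7.00, 7.12 and 7.10 in controls. POMCDicerKO array 3 was the high one, and the log2 fold change of 0.20 was 0.072 without it. Kcnj8, the channel pore that Abcc9 regulates, was at 0.12, and 0.017 without the same array. Notch3, a mural receptor of Notch ligands, was at 0.009, and the peptidase Anpep at -0.058.

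Smooth muscle contractile genes overlapped in all 3 cases. Acta2, the alpha actin of smooth muscle, read 7.77, 7.71 and 7.97 in POMCDicerKO, against 7.80, 7.68 and 7.65 in controls. Its log2 fold change was 0.10 (95% interval -0.098 to 0.31), and 0.028 without POMCDicerKO array 3. Tagln, an actin-binding protein, was at 0.091, and Myl9, a myosin light chain, at 0.023. Over all 10 mural members the median log2 fold change was 0.057, and over the 27 endothelial members it was 0.028. With all probe sets of a gene averaged the 2 medians were 0.028 and 0.029.

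**Figure D3:**
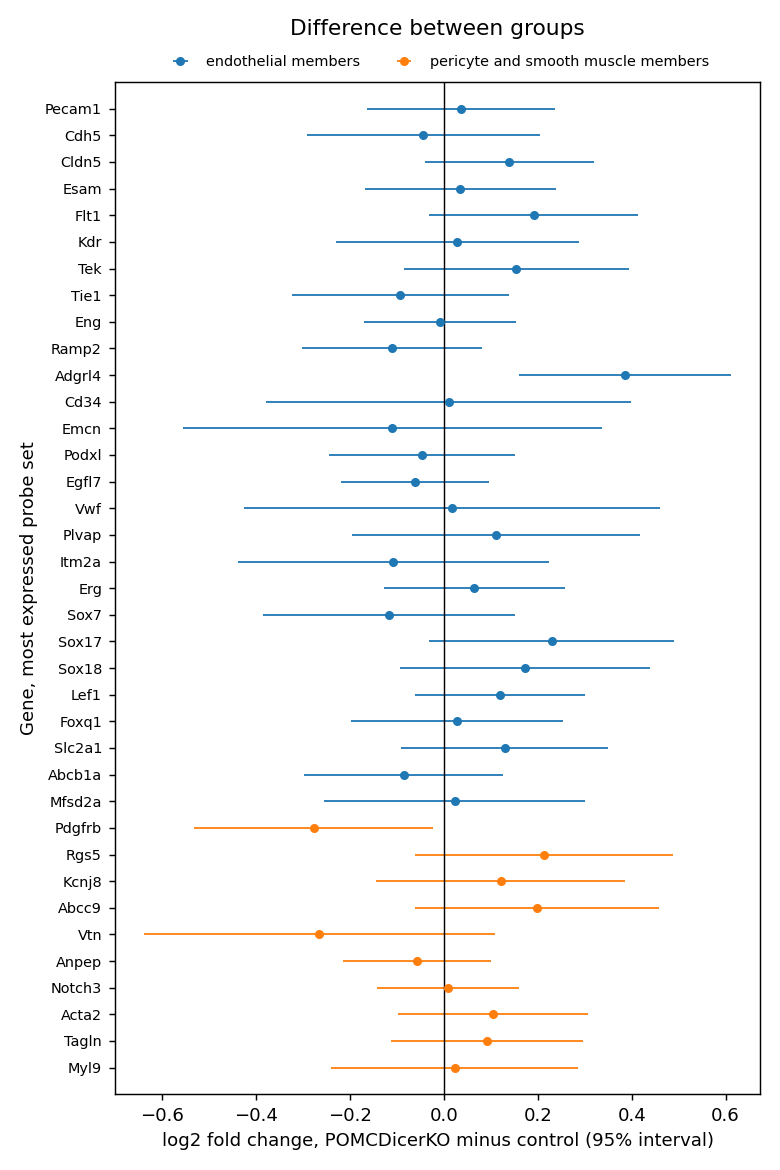
Log2 fold change (POMCDicerKO minus control, horizontal axis) of the 37 vascular genes with limma's 95% interval, endothelial genes in blue and mural genes in orange. The intervals of 35 genes include 0, and those of Adgrl4 (above) and Pdgfrb (below) do not.

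The number of arrays limited what could be resolved. The 95% intervals of the members reached 0.23 to either side of the fold change at the median member, and between 0.15 and 0.45 across the 37. Members were more variable than most genes: their median SD within groups was 0.14, against 0.099 over all genes. An absolute log2 fold change of at least 0.1 was reached by 19 members, or 51.4%, against 21.7% of all genes, and 35 of 37 intervals included 0. Among 11 members with more than 1 probe set of mean at least 6, 3 had both signs (Abcb1a, Egfl7 and Eng), and 16 of their 27 such probe sets were positive. Over all members, 33 of 48 probe sets of that level were positive.

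Arrays of the same group differed from one another in these genes. POMCDicerKO array 1 held the highest value of 14 of 37 members (37.8%), where it is highest for 15.5% of all genes. Array 3 held that of 9 (24.3%, against 19.8% of all genes). Array 2 held the highest value of 0, against 12.8% of all genes, and the lowest of 11 (29.7%, against 15.2%). Control 3 was the lowest for 9 (24.3%, against 15.3% of all genes). Relative to the control mean, the median over the members was 0.088, -0.035 and 0.030 on the POMCDicerKO arrays, against 0.003, 0.051 and -0.062 on the control arrays. POMCDicerKO array 2 thus lay among the controls and control 2 among the POMCDicerKO arrays. On the POMCDicerKO arrays the order of these medians, 1 highest and 2 lowest, was also that of the oligodendrocyte markers. On the control arrays the orders differed: control 2 was highest for the members, at 0.051, and lowest for those markers, at -0.13. The part of the oligodendrocyte markers in these values was not tested. Endothelial and mural medians shared their lowest arrays, 2 of POMCDicerKO and 3 of the controls. The highest POMCDicerKO array was 1 for the endothelial members, at 0.13, and 3 for the mural members, at 0.078.

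**Figure D4:**
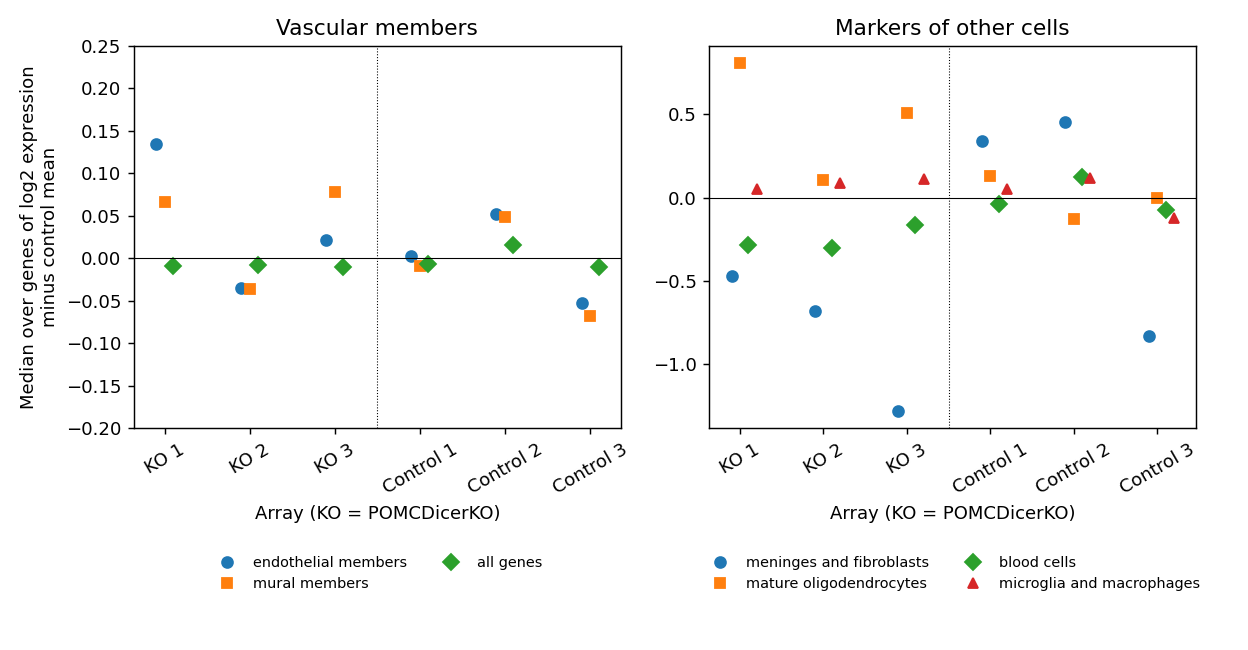
Median over genes of log2 expression minus the control mean (vertical axes, different scales) on each POMCDicerKO and control array, for vascular members and all genes (left) and for markers of other cell types (right). Vascular medians stay close to 0 and interleave between the groups, while meningeal markers are low on the POMCDicerKO arrays and on control 3.

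Other genes of vascular signalling and the vessel wall came from a list of 79. Of 78 measured genes outside the members, 33 were positive and 45 negative, with a median log2 fold change of -0.018. By limma, 2 of the 78 had an unadjusted p under 0.05, a share near the 2.41% of all genes. None passed limma's adjusted threshold. Among 14 ligands, 4 were positive. Pgf, placental growth factor and a ligand of Flt1, was at -0.18. Wnt7a, a neural Wnt that acts on brain endothelium, was at -0.11 at its main probe set. Its other probe sets had the opposite sign, with 1423367_at at 0.086 and 1458334_at, whose mean was under 6, at 0.097. Among 19 receptors and co-receptors, 6 were positive. Lrp6, a Wnt co-receptor made by many cell types, was at 0.34 at its main probe set and -0.096 at another, and the netrin receptor Unc5b was at 0.13. Of 16 further barrier genes, 8 were positive, with the lactate carrier Slc16a1 at 0.23 (0.075 without control 3) and the tricellular junction gene Marveld2 at -0.25 (-0.42 without POMCDicerKO array 2 and -0.15 without control 3). Of 8 basement membrane genes, 5 were positive, with Nid2 at 0.15 and the collagen gene Col4a2 at 0.078. Of 11 other mural genes, 6 were positive, with the mural transcription factors Tbx18 at -0.26 and Foxs1 at -0.11. Of 10 other transcription factors, 4 were positive, and Tal1 and Foxf2 were at -0.099 and -0.10. Marveld2, Tbx18, Foxs1, Tal1 and Foxf2 had means under 6, from 4.82 for Foxs1 to 5.54 for Tbx18.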

How the data were processed

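Groups and replicate numbers came from the sample titles. The authors deposited a log2 value for each probe set on each array. RMA and affy are the tools named in the submitters' processing notes, per the labels, with no version stated here. RMA corrects the background, normalises by quantiles and summarises each probe set. The median of an array was 6.02 to 6.05. Precision is limited by having 6 arrays.

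After 64 control probe sets were left out, 45037 remained. The platform annotation gave 1 gene to 34945, several to 932 and none listed to 9160. Symbols were updated through Entrez identifiers (34741 found, RefSeq table of GRCm38.p6). Each gene was read at the probe set whose mean over the 6 arrays was highest. POMCDicerKO minus control was fitted with limma 3.58.1 in R 4.3.3 (lmFit, eBayes), with Benjamini-Hochberg adjustment over all probe sets and a threshold of 0.05. Errors of fold changes are limma's and single values used an exact two-sided permutation test.

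The members and lists were chosen with earlier results of these data known. Values in every sample are given for members with an unadjusted p under 0.05 or without overlap and an absolute log2 fold change of at least 0.1, for 7 defining markers, and for further members chosen after their values were seen (Vwf, Emcn, Egfl7, Sox17, Slc2a1 and Vtn). Of related genes, those with the smallest p per role are named. Alternatives covered scaling, filters, priors, array weights, a replicate block, averaged probe sets and left-out arrays. The counts of positive and of non-overlapping members were followed through them after the data were seen. The labels give no batch.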

Additional observations from a re-analysis of the deposited data

How the results depend on the processing

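Among named genes, 764 alternative fold changes were computed, and each kept its adjusted p above the threshold. Genes of low level had none under the filters on level, and averaged probe sets were followed for the lists only. Of the 764 values, 717 kept their sign and 47 turned. Without controls 1 and 2, where control 3 is the only control and is assumed to vary like the POMCDicerKO arrays, the turned values were Cdh5 0.10, Egfl7 0.0081, Eng 0.045, Tie1 0.058, Ramp2 0.018, Emcn 0.0064, Podxl 0.056, Vwf -0.017, Itm2a 0.052, Foxq1 -0.0094, Slc2a1 -0.064, Mfsd2a -0.19, Vtn 0.069, Tal1 0.068, Foxf2 0.094. A further quantile normalisation turned Eng 0.0021, and array weights turned Kdr -0.019, Vwf -0.11. With single arrays left out, the values that turned ran over these ranges: Cdh5 -0.12 to 0.043, Eng -0.034 to 0.045, Kdr -0.084 to 0.11, Pecam1 -0.021 to 0.10, Esam -0.039 to 0.10, Tie1 -0.17 to 0.0082, Cd34 -0.13 to 0.15, Emcn -0.30 to 0.085, Podxl -0.097 to 0.018, Vwf -0.23 to 0.16, Plvap -0.0019 to 0.26, Itm2a -0.23 to 0.042, Foxq1 -0.072 to 0.11, Mfsd2a -0.089 to 0.13, Notch3 -0.023 to 0.035, Myl9 -0.068 to 0.13, Foxf2 -0.20 to 0.0023. Of 49 named genes, 43 turned or moved by over 1.5 times with some single array left out.

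The member median of 0.028 ran from -0.0068 without POMCDicerKO array 1 to 0.10 without array 2, the endothelial median over the same 2 values, and the mural median from 0.018 to 0.11, with 0.17 without controls 1 and 2. Members at an unadjusted p under 0.05 numbered 1 to 4 with single arrays left out, 1 after the further quantile normalisation and 1 without moderation. Over all probe sets, the count was 1128 after that normalisation and 1197 without moderation. Members without overlap numbered 3 after that normalisation, 5 to 13 with single arrays left out and 20 without controls 1 and 2. Fewer arrays make overlap less likely by construction. The share of all genes without overlap was not computed in these settings, so these counts have no background to be read against. Over all probe sets, the count past the adjusted threshold was 1 with a trended and robust prior, 1 without controls 1 and 2 and 0 to 2 with single arrays left out, 0 of them a member. The count at an unadjusted p under 0.05, 1098, was 427 and 419 with the filters at a mean of 6 and at the median level, which test fewer probe sets, 1868 without controls 1 and 2, and 874 to 2075 with single arrays left out. Averaging all probe sets of a gene gave no count of probe sets.

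The replicate number used as a replicate block gave 3 members and 1396 probe sets at an unadjusted p under 0.05 and 0 past the adjusted threshold. Same-numbered arrays deviated together with r of 0.13, 0.079 and 0.12 across probe sets, and the labels say of the number nothing further.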

Other observations

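POMCDicerKO array 3 was the highest array for 9 of 37 members (24.3%), against 19.8% of all genes, and the lowest for 6 (16.2%), against 23.6% of all genes, shares close to or below those of all genes. The 9 were Pecam1, Flt1, Kdr, Vwf, Plvap, Kcnj8, Abcc9, Anpep and Acta2, and the 6 were Tie1, Ramp2, Emcn, Podxl, Itm2a and Sox7. Vwf and Emcn, both endothelial, lay furthest apart there, at 6.74 and 6.07, against control means of 6.23 and 6.57. Both Itm2a probe sets were lowest on this array, at 10.75 and 9.68, against control means of 11.16 and 9.95. These genes were picked after their values were seen, and no test was made.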
